A study of Mus musculus with 6 samples.

Results

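Mast cells and basophils store serine proteases and a carboxypeptidase in their granules and carry the high-affinity receptor for IgE, and 10 genes of this kind were followed here. They are the chymases Cma1, Mcpt1 and Mcpt4, the tryptases Tpsb2 and Tpsab1, the carboxypeptidase Cpa3, the basophil proteases Mcpt8 and Prss34, and the receptor subunits Fcer1a and Ms4a2. They were found as every probe set whose gene symbol in the platform's annotation is one of these names. Of the 10 genes 9 had a probe set, 11 probe sets in all, among 18194 genes measured. No probe set was listed for Prss34, which was not analysed here. Where a gene had several probe sets, the one with the highest mean level over all arrays stood for it.

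The cells were lineage-negative, cKit+, Sca1+ bone marrow cells, a fraction enriched for blood stem cells and multipotent progenitors. They came from 6-week-old mice of the genotype Hes1 GFP/WT, in which 1 allele of Hes1, a repressor and Notch target, carries GFP. Both groups therefore have the reporter allele, and they differ in the GFP signal by which the cells were sorted. There were 3 GFP-positive and 3 GFP-negative arrays, and in each group replicate 1 was female while replicates 2 and 3 were male. The sources used here do not give the strain or the number of animals behind each array. Each value is a log2 intensity, and a difference is GFP-positive minus GFP-negative.

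Mast cells mature in tissues from marrow progenitors, whereas basophils complete their maturation in the marrow. Their granule enzymes are held on proteoglycans at low pH and are released when antigen cross-links IgE on the receptor. That receptor has an IgE-binding alpha chain (Fcer1a), a signal-amplifying beta chain (Ms4a2) and a gamma chain (Fcer1g) shared with other Fc receptors. In mouse, transcripts of some of these genes, Cpa3 among them, are also found in early myeloid progenitors.

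The members lie in a few clusters of the genome (GRCm38.p6, RefSeq). On chromosome 14 lie Cma1 at chr14:55941451-55944675, Mcpt1 at chr14:56017964-56020391, Mcpt4 at chr14:56059744-56062310 and Mcpt8 at chr14:56082163-56085499. The 3 members on chromosome 17 are Prss34 at chr17:25298394-25300168, Tpsab1 at chr17:25343245-25345562 and Tpsb2 at chr17:25366308-25368096. Cpa3 lies at chr3:20215616-20242209, Ms4a2 at chr19:11615517-11623790 and Fcer1a at chr1:173221269-173227232. RefSeq lists Tpsab1 as a transcribed pseudogene in this assembly, which is of the C57BL/6J strain, and the other 9 as protein-coding.

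Upstream sequences are shown because 2 chymase genes on chromosome 14, Mcpt1 and Mcpt4, share most of theirs. RefSeq-based sequence of the 250 bases before 1 annotated start was available for 8 members (GRCm38.p6). That start can lie inside the span of the whole gene given above: the window of Mcpt8 lies wholly within its span, and 71 bases of the Ms4a2 window, 28 of the Cpa3 window and 3 of the Fcer1a window do so. The first pair is Mcpt1 (chr14:56017714-56017963, plus strand) and Mcpt4 (chr14:56062311-56062560, minus strand). Their capitals mark a match, on either strand, to a GATA-type motif: AGATAA or its variant AGATAG, or else TGATAA or its variant TGATAG.
Mcpt1: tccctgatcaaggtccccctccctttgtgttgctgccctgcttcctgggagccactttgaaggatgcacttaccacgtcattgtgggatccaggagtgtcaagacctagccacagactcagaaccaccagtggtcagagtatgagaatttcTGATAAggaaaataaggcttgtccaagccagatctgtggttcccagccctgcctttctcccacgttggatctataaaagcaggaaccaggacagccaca
Mcpt4: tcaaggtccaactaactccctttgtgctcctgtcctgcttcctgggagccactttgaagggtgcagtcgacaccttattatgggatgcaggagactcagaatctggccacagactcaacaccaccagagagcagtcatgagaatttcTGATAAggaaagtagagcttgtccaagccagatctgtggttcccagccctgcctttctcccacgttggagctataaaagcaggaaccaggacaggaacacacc
In a global alignment 81.9% of the columns of these sequences were identical, against 47.3% to 54.8% for the other 27 pairs of members. Both hold TGATAA within the same surrounding stretch, at bases -99 to -94 before the start in Mcpt1 and -103 to -98 in Mcpt4.

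The other windows shown belong to some of the members with wide differences between or within the groups, with the same motifs in capitals. They are those of Cma1 (chr14:55944676-55944925), Cpa3 (chr3:20242182-20242431) and Fcer1a (chr1:173227230-173227479), all on the minus strand. The window of Ms4a2, whose brighter probe set had a difference of -1.37, held 3 matches to AGATAA and is not shown.
Cma1: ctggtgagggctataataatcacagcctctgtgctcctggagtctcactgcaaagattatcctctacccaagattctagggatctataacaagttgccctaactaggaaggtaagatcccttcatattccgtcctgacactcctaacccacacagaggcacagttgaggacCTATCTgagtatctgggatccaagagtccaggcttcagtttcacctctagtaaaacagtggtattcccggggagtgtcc
Cpa3: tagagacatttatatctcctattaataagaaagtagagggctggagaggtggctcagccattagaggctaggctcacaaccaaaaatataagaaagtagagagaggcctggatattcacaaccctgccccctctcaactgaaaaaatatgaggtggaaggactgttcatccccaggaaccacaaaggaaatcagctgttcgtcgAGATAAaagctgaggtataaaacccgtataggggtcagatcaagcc
Fcer1a: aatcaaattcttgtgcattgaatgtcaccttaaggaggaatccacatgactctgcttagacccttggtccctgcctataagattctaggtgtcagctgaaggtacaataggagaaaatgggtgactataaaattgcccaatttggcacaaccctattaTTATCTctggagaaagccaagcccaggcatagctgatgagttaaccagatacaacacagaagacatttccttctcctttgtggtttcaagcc
Of the 8 windows 7 held at least 1 of the 4 GATA-type motifs. AGATAA was in 4, against 9.99% of all windows, AGATAG in 1, against 7.71%, and TGATAA in 2, against 7.94%. The 2 with TGATAA were Mcpt1 and Mcpt4, which share most of their sequence and so are not separate cases. The share over 32851 promoter windows of the same length was 26.5% for any of the 4. The window of Mcpt8, inside the span of its gene, held none. The sequence CANNTG was present in 5 of the 8, against 66.2% of all windows. Its special case CATGTG was present in 2, Fcer1a and Prss34, against 12.3%. The other special case, CACGTG, was in 0 of the 8, against 6.02%. These matches are letters in a window and were not tested as binding sites.

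The arrays were alike as a whole, with correlations between 0.925 and 0.951 over all probe sets and median intensities between 74.0 and 78.5. Xist and 3 Y-linked genes matched the sex labels. Xist in male arrays reached 5.59 and the Y-linked genes in female arrays reached 4.69, and these levels serve as a higher and a lower guide to background. They are rough, since each probe set has a background of its own. Hes1 was at 7.36, 7.09 and 7.84 across GFP-positive replicates 1 to 3, against 6.78, 6.79 and 7.10 in GFP-negative ones, and the groups overlapped by 0.01. By limma 0 of 18194 genes differed at an adjusted p under 0.05, a share of 0% in either direction, and the 9 measured members were among those that did not pass. Before adjustment, a limma p under 0.05 was found for 606 higher and 615 lower genes.

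The members were chosen by gene name with the measured GFP differences of these arrays in view, and their probe sets were selected on mean level, so their differences are given as a description and not as a test. All 3 GFP-positive arrays lay above all GFP-negative ones in 4 members (Cma1, Mcpt4, Tpsb2 and Fcer1a) and below them in 2 (Mcpt1 and Ms4a2), while 3 overlapped (Mcpt8, Tpsab1 and Cpa3). Over all genes the shares were 5.89% above and 5.51% below. Of the 9 members 7 had a difference above 0, against 51.3% of all genes, and their median difference was 0.81, against 0.01 over all genes. At an unadjusted limma p under 0.05 there were 3 higher members and 1 lower one, where all genes gave 3.33% and 3.38%. In sorted populations, fewer cells of a type and less RNA per cell cannot be told apart.

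**Figure D1:**
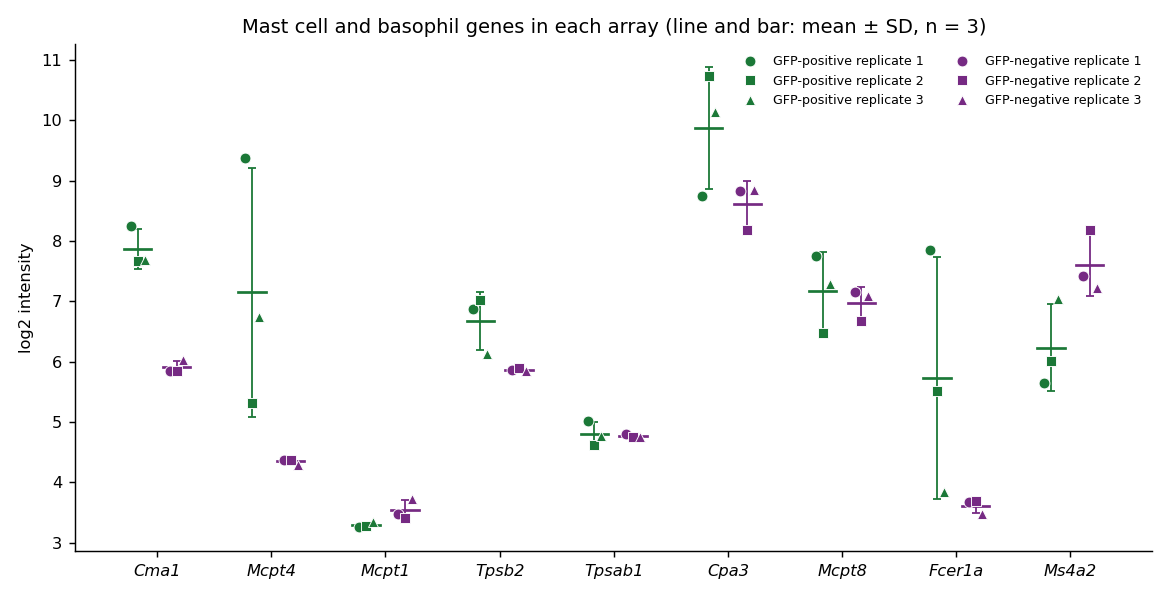
Log2 intensity (y axis) of the 9 measured genes (x axis) in each array, with GFP-positive arrays in green at the left of each pair and GFP-negative arrays in purple at the right, replicates by symbol, and lines and bars for the mean ± SD (n = 3). Cma1 separates the groups with little spread, Mcpt4 and Fcer1a reach 9.38 and 7.84 in GFP-positive replicate 1, and the brighter Ms4a2 probe set, shown here, lies lower in GFP-positive arrays while its other probe set has a difference of 0.44.

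Among the chymases Cma1 differed most evenly. Cma1 was at 8.26, 7.67 and 7.68 across GFP-positive replicates 1 to 3, against 5.85, 5.85 and 6.03 in GFP-negative ones. The lowest GFP-positive array lay 1.64 above the highest GFP-negative one, a gap wider than the range within either group (0.58 and 0.18). The means were 7.87 ± 0.33 in GFP-positive and 5.91 ± 0.11 in GFP-negative cells (SD, n = 3 each), a difference of 1.96 ± 0.21 (limma SE), or 3.89-fold. Within the same replicate number the difference was 2.41, 1.82 and 1.65. All 6 Cma1 values exceeded the higher guide to background (5.59), the GFP-negative ones by little.

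Mcpt4, a chymase of connective tissue mast cells in the mouse, also lay higher in all GFP-positive arrays, but unevenly. Mcpt4 was at 9.38, 5.32 and 6.74 across GFP-positive replicates 1 to 3, against 4.37, 4.38 and 4.29 in GFP-negative ones. Its GFP-positive values spanned 4.05 and its GFP-negative values 0.09. The means were 7.15 ± 2.06 in GFP-positive and 4.35 ± 0.05 in GFP-negative cells (SD, n = 3 each), and the difference was 2.80 ± 0.98 (limma SE). All 3 GFP-negative values lay below the lower guide to background, so no dependable GFP-negative level stands under this difference. Without GFP-positive replicate 1 the difference was 1.69, and 5.32 and 6.74 still lay above every GFP-negative array.

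Mcpt1, the chymase of mucosal mast cells in the mouse, stayed below the lower guide in all arrays. It was at 3.26, 3.28 and 3.34 across GFP-positive replicates 1 to 3, against 3.48, 3.41 and 3.73 in GFP-negative ones. The groups were separated by 0.08, and the difference was -0.25 ± 0.15 (limma SE).

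The tryptases, which cut after basic residues and act as tetramers, were covered by 3 probe sets. Tpsb2 was at 6.87, 7.03 and 6.13 across GFP-positive replicates 1 to 3, against 5.86, 5.89 and 5.84 in GFP-negative ones. The GFP-positive arrays lay higher by at least 0.24, and GFP-positive replicate 3 was the nearest to the GFP-negative values. The difference was 0.81 ± 0.26 (limma SE). The other Tpsb2 probe set lay between 4.80 and 4.97 in GFP-positive arrays and between 4.90 and 4.95 in GFP-negative ones, a difference of -0.04, so the probe sets of Tpsb2 disagreed. Tpsab1 was at 5.02, 4.62 and 4.76 across GFP-positive replicates 1 to 3, against 4.80, 4.75 and 4.76 in GFP-negative ones, with overlapping groups and a difference of 0.03 ± 0.16. Tpsb2 and Tpsab1 are close paralogs, so signal shared between their probe sets cannot be told apart here.

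Cpa3, the carboxypeptidase that trims peptides and venom toxins in mast cell granules, was high in GFP-positive replicates 2 and 3. It was at 8.75, 10.73 and 10.13 across GFP-positive replicates 1 to 3, against 8.83, 8.18 and 8.85 in GFP-negative ones. GFP-positive replicate 1 fell within the GFP-negative range, so the groups overlapped. The means were 9.87 ± 1.01 in GFP-positive and 8.62 ± 0.38 in GFP-negative cells (SD, n = 3 each), and the difference was 1.25 ± 0.53 (limma SE). Within the replicate 1 pair the difference was -0.08 and within the 4 male arrays it was 1.91. All 6 values lay above the higher guide, in GFP-negative arrays as well.

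Mcpt8, a granule protease that marks basophils in the mouse, did not separate the groups. It was at 7.75, 6.48 and 7.29 across GFP-positive replicates 1 to 3, against 7.16, 6.67 and 7.09 in GFP-negative ones. GFP-positive replicates held both the highest and the lowest value. The difference was 0.20 ± 0.35 (limma SE), and it was -0.09 without GFP-positive replicate 1.

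Of the IgE receptor subunits, Fcer1a lay higher in GFP-positive arrays, while the direction of Ms4a2 differed between its probe sets. Fcer1a, the chain that binds IgE, was at 7.84, 5.51 and 3.84 across GFP-positive replicates 1 to 3, against 3.67, 3.70 and 3.47 in GFP-negative ones. GFP-positive replicate 3 exceeded the highest GFP-negative array by 0.14 and lay below the lower guide, as did every GFP-negative array. The difference was 2.11 ± 0.96 (limma SE) with all arrays and 1.06 without GFP-positive replicate 1.

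Ms4a2, the amplifying beta chain, in its brighter probe set was at 5.64, 6.01 and 7.05 across GFP-positive replicates 1 to 3, against 7.41, 8.19 and 7.22 in GFP-negative ones. Each GFP-positive array lay below each GFP-negative array, by at least 0.17, and the difference was -1.37 ± 0.44 (limma SE). The other Ms4a2 probe set gave the opposite sign. It was at 3.91, 4.62 and 4.40 across GFP-positive replicates 1 to 3, against 3.99, 3.79 and 3.84 in GFP-negative ones, with overlapping groups and a difference of 0.44. That second probe set is the one whose listed accession is a RefSeq transcript of Ms4a2, and all its values lay below the lower guide. The direction of Ms4a2 therefore depends on the probe set, and the mean of both gave -0.47. Fcer1g, the shared gamma chain, was at 11.45, 11.03 and 10.84 across GFP-positive replicates 1 to 3, against 10.93, 11.30 and 10.11 in GFP-negative ones, with overlapping groups.

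**Figure D2:**
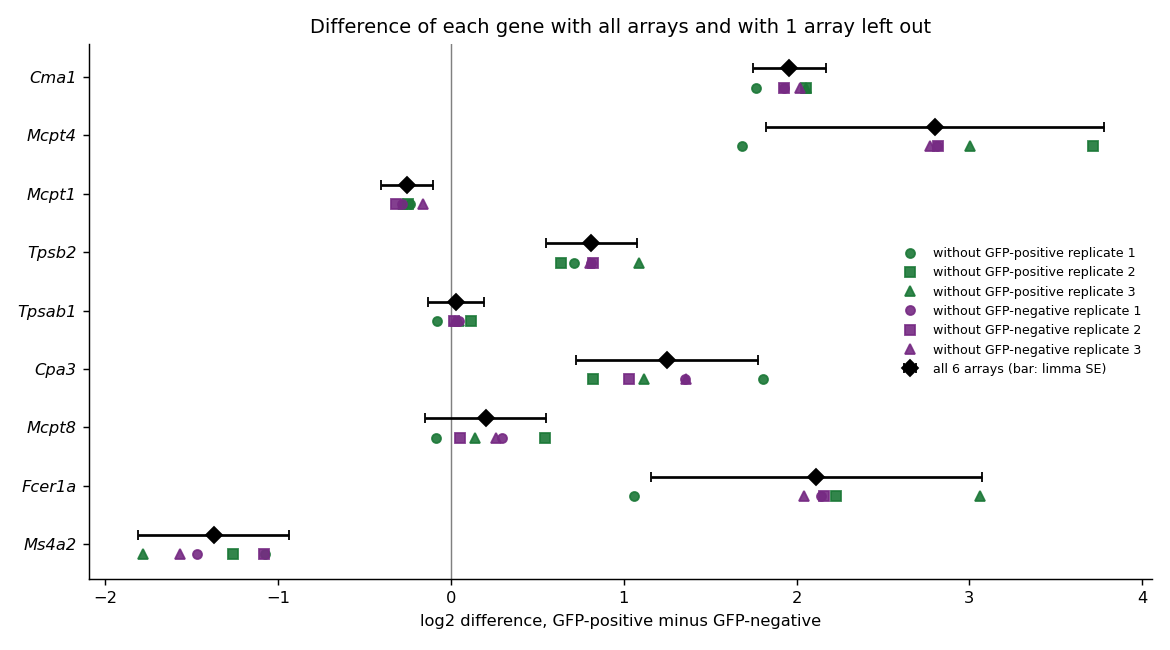
Difference in log2 intensity, GFP-positive minus GFP-negative (x axis), for each of the 9 genes (y axis), with all 6 arrays (black diamond, bar: limma SE) and with each array left out in turn (coloured symbols). Without GFP-positive replicate 1 the difference is 1.69 for Mcpt4 (2.80 with all arrays), 1.06 for Fcer1a (2.11), 1.81 for Cpa3 (1.25) and 1.77 for Cma1 (1.96).

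GFP-positive replicate 1 was the highest array for Cma1, Mcpt4, Mcpt8, Tpsab1 and Fcer1a, and the lowest for Ms4a2 and Mcpt1. Markers of endothelial and stromal cells moved with the same array: 8 of 9 measured markers were highest there. Their summed intensity was 1706.9 to 12780.5 in GFP-positive arrays, against 1794.3 to 2893.0 in GFP-negative ones. Of the 9, 2 lay higher without overlap of the groups, Cxcl12 and Tie1, and 0 lower, where all genes gave 5.89% and 5.51%. Cxcl12 was at 12.52, 9.27 and 8.33 across GFP-positive replicates 1 to 3, against 5.34, 5.52 and 5.38 in GFP-negative ones. Its 3 probe sets gave differences from -0.005 to 4.63. Of 10 neutrophil markers 8 were also highest in GFP-positive replicate 1. Neutrophil sums were 13400.7 to 31854.7 in the GFP-positive group and 12153.3 to 16525.0 in the GFP-negative group. Of the 10, 8 had a difference above 0, against 51.3% of all genes, and the median was 0.11. Without overlap 2 lay higher, Elane and Ctsg, and 0 lower. Elane was at 11.81, 10.55 and 9.70 across GFP-positive replicates 1 to 3, against 8.37, 5.20 and 5.78 in GFP-negative ones. By the median of these neutrophil markers relative to the GFP-negative mean, GFP-positive replicate 1 (0.82) did not stand above GFP-negative replicate 1 (0.89). No marker had a value of 0, and 1 marker in each of these lists had a mean at or below the higher guide. Their part in the values of Mcpt4 and Fcer1a was not tested. A limma interaction term asked whether the GFP difference differed between males and females, with 1 female array per group. After adjustment this limma term passed 0.05 for 0 of 18194 genes (0%), the lowest adjusted p among members being 0.596. Before adjustment its p was under 0.05 for 1317 genes (7.24%), among them 3 members, Mcpt4, Cpa3 and Fcer1a. The female difference has no spread of its own, so this term shows neither that the members differ between the sexes nor that they do not.

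Markers of several other blood cells differed between the groups in these arrays, where 51.3% of all genes had a difference above 0. Of 12 monocyte and macrophage markers 10 had a difference above 0, and the median of the list was 1.90. Sums over the list were 3711.3 to 7365.2 in GFP-positive arrays against 2121.0 to 3587.1 in GFP-negative ones. The markers that went the other way were Csf1r, at -2.20 without overlap of the groups, and Cd68, at -0.37. Csf1r had the highest mean level of the list, and its 3 probe sets ranged from -2.20 to -0.22. Of 8 erythroid markers 7 had a difference above 0, with a median of 1.47 and sums of 3788.3 to 6139.1 in GFP-positive arrays against 632.8 to 804.9 in GFP-negative arrays. Megakaryocyte markers had 6 of 7 above 0, a median of 0.68 and sums of 6296.4 to 8033.2 in GFP-positive arrays against 1427.8 to 2866.1 in GFP-negative arrays. B and plasma cell markers had 6 of 7 above 0, a median of 1.31 (0.73 without GFP-negative replicate 2) and sums of 2286.2 to 3269.2 in GFP-positive arrays against 883.6 to 1640.3 in GFP-negative arrays. Eosinophil markers, of granulocytes that share the marrow with basophils, had 3 of 6 above 0 and 5 of 6 with a mean at or below the higher guide. T and NK cell markers had 5 of 9 above 0 and a median of 0.05. Their sums overlapped, at 2986.0 to 4138.6 in GFP-positive and 3459.5 to 4659.0 in GFP-negative cells. Of the 9, 1 lay higher without overlap and 0 lower, where all genes gave 5.89% and 5.51%. That marker was Gzma, at 7.43, 8.07 and 7.11 across GFP-positive replicates 1 to 3, against 4.04, 4.19 and 4.86 in GFP-negative ones. Of these markers 0 in any list passed limma at an adjusted p under 0.05. No value was 0, and 1 monocyte and macrophage, 3 erythroid, 1 megakaryocyte and 1 B and plasma cell marker had a mean at or below the higher guide. Their part in the members' differences was not tested.

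**Figure D3:**
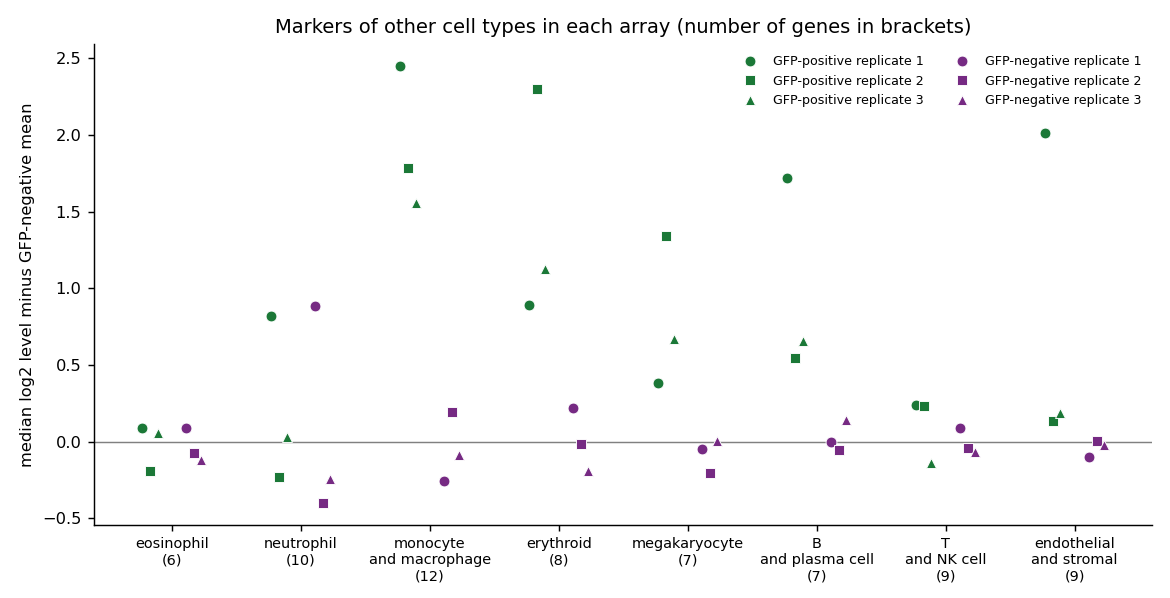
Median log2 level of each marker list relative to the GFP-negative mean (y axis) in each array (GFP-positive in green at the left, GFP-negative in purple at the right, replicates by symbol), for 8 lists of cell type markers (x axis, number of measured genes in brackets). The endothelial and stromal median stands at 2.01 in GFP-positive replicate 1 and near 0 in the other 5 arrays. Cxcl12 and Tie1 of that list lay higher in every GFP-positive array than in any GFP-negative one. The monocyte and macrophage median is above 1.5 in all GFP-positive arrays, although Csf1r of that list has a difference of -2.20.

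Other genes of mast cells and basophils had list medians at or below 0. Of 88 genes in 5 further lists 80 had a probe set, and 0 passed limma at an adjusted p under 0.05, so the values that follow describe these arrays. Of 17 other granule and mediator genes 8 had a difference above 0 (median -0.04), against 51.3% of all genes. Before adjustment 1 higher and 1 lower gene had a limma p under 0.05, where all genes gave 3.33% and 3.38%. Hdc, which makes histamine, was at 7.82, 8.37 and 8.10 across GFP-positive replicates 1 to 3, against 6.67, 7.39 and 7.63 in GFP-negative ones, and the groups did not overlap. Ltc4s, which makes the leukotriene of mast cells and basophils, lay the other way at 7.20, 6.72 and 6.42 in GFP-positive arrays, against 7.88, 8.43 and 7.31 in GFP-negative ones. Gzmb, a granzyme also made by cytotoxic lymphocytes, was at 5.50, 9.05 and 8.72 in GFP-positive arrays, against 5.35, 5.57 and 5.57 in GFP-negative ones, so it was high in the same GFP-positive replicates as Cpa3. Srgn, the proteoglycan core that holds proteases in granules, averaged 12.89 ± 0.05 in GFP-positive arrays against 12.93 ± 0.10 in GFP-negative ones (SD, n = 3 each).

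Genes that carry the signal of the IgE receptor lay mostly lower, with 4 of 17 differences above 0, against 51.3% over all genes. Their median was -0.25, against 0.01 over all genes. Before adjustment 1 higher and 4 lower genes had a limma p under 0.05, where all genes gave 3.33% and 3.38%. Pik3cd, a leukocyte lipid kinase, was at 8.67, 8.31 and 8.85 across GFP-positive replicates 1 to 3, against 9.25, 9.71 and 9.77 in GFP-negative ones. The adaptor Lcp2 was at 8.79, 9.07 and 9.30 in GFP-positive arrays, against 9.89, 9.51 and 10.01 in GFP-negative ones. Both lay lower in every GFP-positive array than in any GFP-negative one, as 5.51% of all genes did. Prkcb, a protein kinase C, lay the other way, at 9.46, 7.39 and 8.38 in GFP-positive arrays, against 6.73, 5.34 and 4.66 in GFP-negative ones. The probe sets disagreed for Pik3cd, with 6 differences from -0.96 to 1.27, and for Prkcb, with 3 from -0.05 to 2.83. The 2 probe sets of Lcp2 gave -0.75 and -0.07.

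Surface and cytokine receptors had 5 of 17 differences above 0 (median -0.18), against 51.3% over all genes. Before adjustment 0 higher and 2 lower genes had a limma p under 0.05, where all genes gave 3.33% and 3.38%. Cd33, an inhibitory lectin, was at 5.91, 7.90 and 5.43 across GFP-positive replicates 1 to 3, against 8.78, 9.39 and 9.14 in GFP-negative ones. Il4ra, the receptor chain for interleukin 4, averaged 9.11 ± 0.25 in GFP-positive arrays against 9.87 ± 0.38 in GFP-negative ones (SD, n = 3 each). The 3 probe sets of Il4ra gave differences from -0.76 to -0.12. Itga2, an integrin chain found on basophils, was at 7.03, 6.56 and 8.90 in GFP-positive arrays, against 5.72, 5.61 and 6.54 in GFP-negative ones. Kit, the stem cell factor receptor that mast cells need and on which these cells were sorted, was at 9.69, 10.30 and 10.51 in GFP-positive arrays, against 10.72, 10.58 and 10.47 in GFP-negative ones. Kit overlapped between the groups and was lowest in GFP-positive replicate 1.

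Among the transcription factors 6 of 17 differences were above 0 (median -0.05), against 51.3% over all genes. Before adjustment 2 higher and 1 lower gene had a limma p under 0.05, where all genes gave 3.33% and 3.38%. Gata1, needed for mast cell as well as red cell and platelet differentiation, was at 7.87, 8.60 and 8.24 across GFP-positive replicates 1 to 3, against 6.85, 5.80 and 7.26 in GFP-negative ones. Zfpm1, a partner of Gata1, averaged 9.25 ± 0.49 in GFP-positive arrays against 8.45 ± 0.40 in GFP-negative ones (SD, n = 3 each). Spi1, a myeloid and B lineage factor, lay the other way at 9.26 ± 0.22 in GFP-positive arrays against 9.76 ± 0.11 in GFP-negative ones. Gata1 and Zfpm1 (higher) and Spi1 (lower) separated the groups without overlap, as 5.89% of all genes did above and 5.51% below. Gata2 and Mitf, 2 further factors of mast cell development named here after their values were seen, had differences of 0.13 ± 0.29 and 0.60 ± 0.50 (limma SE) with overlapping groups, and the other probe set of Mitf gave -0.78.

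The cytokine list had 6 of 12 differences above 0, against 51.3% over all genes, and a median near 0 (-0.003). Of the 12, 6 had a mean at or below the higher guide, which limits this median. Among the brighter 6, Ccl3 (-2.34), Ccl4 (-1.24) and Tnf (-1.15) had differences below 0. Il4 (0.65), Csf1 (0.34) and Ccl2 (0.08) had differences above 0, and the groups overlapped in all 6. Before adjustment 1 higher and 0 lower genes had a limma p under 0.05, where all genes gave 3.33% and 3.38%. Il4, a type 2 cytokine of basophils and mast cells, was at 6.01, 6.82 and 6.55 across GFP-positive replicates 1 to 3, against 6.02, 5.78 and 5.62 in GFP-negative ones, and the groups overlapped. Ccl3, a chemokine, was at 10.67, 7.39 and 7.54 in GFP-positive arrays, against 12.64, 11.04 and 8.92 in GFP-negative ones, with the highest value of each group in replicate 1.

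**Figure D4:**
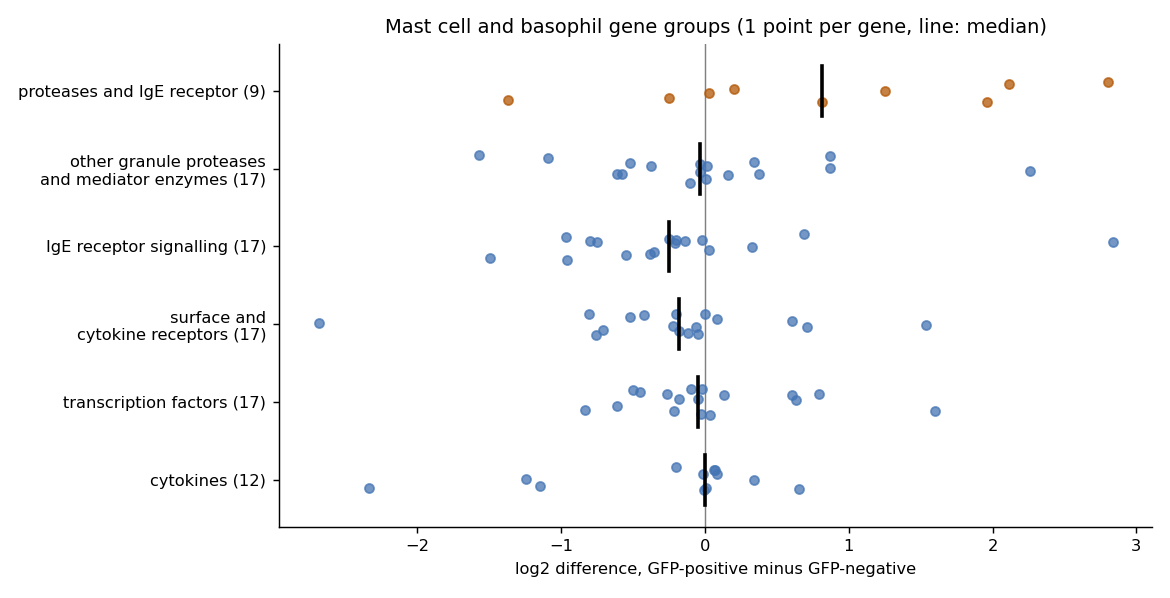
Difference in log2 intensity, GFP-positive minus GFP-negative (x axis), for each gene (1 point) of the 9 measured proteases and receptor subunits and of 5 further groups of mast cell and basophil genes (y axis, number of measured genes in brackets), with the median as a line. The medians of the further groups lie between -0.25 and 0, while the proteases and receptor subunits range from -1.37 to 2.80.

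The profiles most like those of 4 members were taken from 5190 genes above the higher guide with an SD of at least 0.5 over the 6 arrays. Likeness was the root mean square difference in log2 over the 6 arrays after each profile was centred on its own mean. Nearest to Cma1 were Sphk1, a sphingosine kinase (0.17), Nupr1, a stress-induced nuclear protein (0.23), and Kif22, a kinesin (0.23). Sphk1 was at 8.26, 7.51 and 7.86 across GFP-positive replicates 1 to 3, against 5.95, 5.61 and 5.74 in GFP-negative ones. Nearest to Cpa3 were Fbxo5, a cell cycle inhibitor of the anaphase-promoting complex (0.19), Fam110c (0.24) and Adprm (0.28).

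Nearest to Fcer1a were Sned1 (0.30), the collagen chain Col1a2 (0.37) and Paqr9 (0.41). Col1a2 was at 10.42, 7.70 and 6.16 across GFP-positive replicates 1 to 3, against 6.72, 6.90 and 6.30 in GFP-negative ones. Nearest to the brighter probe set of Ms4a2, whose other probe set had the opposite sign, were Megf11 (0.28), Dand5 (0.28) and the tetraspanin Tspan5 (0.29). With 6 arrays and 5190 candidates, some close profiles are found for most genes.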

How the data were processed

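RNA from 6 sorted samples was measured on Affymetrix arrays, from 5 ng of total RNA per sample amplified and biotin-labelled with the Ovation system, per the labels' protocols. The authors deposited 1 linear intensity per probe set and array for 45101 probe sets. The submitters' processing notes name RMA, which corrects background, normalises and summarises probes, without version or settings. It compresses differences near background, so those of dim genes may come out too small.

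Log2 was taken with no pseudocount. Of the probe sets 34958 carried 1 gene symbol in the platform's annotation, 932 carried several and 9211 were not listed or had no symbol. These last groups were left out, and 18194 genes remained, with no filter on dim genes. Groups were compared over all genes with limma 3.58.1 (lmFit, eBayes; R 4.3.3) without covariates, with Benjamini-Hochberg adjustment and a threshold of 0.05. The fit was tested on simulated data.

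Promoters were aligned with Biopython 1.88 and plots made with matplotlib 3.10.9 (Python 3.11.15). Precision is limited by the number of arrays. Nothing in the labels says that they came from separate animals, and the p-values then reflect only how these samples vary, which can be technical variation. The members and lists were chosen with earlier results of these data known. Named genes were all members, up to 3 genes of smallest p and up to 2 of highest mean level per list, Hes1 and the sex genes, and the 3 nearest profiles of 4 members. Alternatives were: averaging a gene's probe sets, leaving out genes below the 40th or 60th percentile of level, renewed quantile or median normalisation, other variance priors, a replicate block, a sex term and the omission of each array. Protein sequences were not used here.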

Additional observations from a re-analysis of the deposited data

How the results depend on the processing

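With all arrays limma called 0 genes higher and 0 lower. The count of higher genes was 1 when genes below the 40th percentile were dropped, 2 below the 60th, and 0 to 5 with each array left out in turn, the 5 without GFP-positive replicate 3. Of the genes called in any alternative 0 were members. The replicate numbers were not shown to pair the arrays: deviations from the group mean of same-numbered arrays correlated at 0.124, 0.0503 and 0.0922, although each array correlated best with its own number. With the replicate number as a block 0 genes passed, and before adjustment 665 higher and 725 lower genes had p under 0.05. At the 60th percentile filter these counts were 293 and 360, among fewer genes.

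Of the 9 members, 4 passed the 40th percentile filter, 3 of them with a difference above 0, and 1 passed the 60th, Cpa3, also above 0. With each array left out, 5 to 7 of 9 were above 0, 5 without GFP-positive replicate 1. Cpa3 was at -0.0813 within the replicate 1 pair, chosen after seeing the data. With each array left out, list medians lay between -0.49 and -0.13 for IgE receptor signalling, between -0.27 and -0.10 for surface and cytokine receptors and between -0.0829 and 0.0691 for other granule and mediator genes. Within the replicate 1 pair the medians were 0.0453 for surface and cytokine receptors and -0.29 for granule and mediator genes. The cytokine median was -1.15 and -1.79 under the filters, which left fewer genes. The cause of the other changes was not tested. The endothelial and stromal marker median was 1.24 with all arrays, and 0.0951 to 1.69 with each left out, lowest without GFP-positive replicate 1. With each array left out the B and plasma cell median was 0.73 to 1.96. At the 60th percentile filter, with fewer genes, marker medians were 0.30 for B and plasma cells, 1.07 for monocytes and macrophages, 0.0661 for endothelial and stromal cells, 2.97 for erythroid cells and 1.39 for megakaryocytes (2.09 at the 40th). Signal near background limits Mcpt1, Tpsab1, Fcer1a and the GFP-negative level of Mcpt4. The GFP-negative values of Cma1 (5.85 to 6.03) and Tpsb2 (5.84 to 5.89) also lay little above the higher guide (5.59).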
